A study of Mus musculus with 479 samples.

Results

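The expression of 10 genes of the distal nephron was followed, out of 24475 gene identifiers in the tables. They were the thick limb genes Umod and Slc12a1, the distal tubule cotransporter Slc12a3, the sodium channel genes Scnn1a, Scnn1b and Scnn1g, the kinase genes Wnk1 and Wnk4, and the calcium genes Calb1 and Trpv5. They were taken by name from the tables' gene identifiers, and all 10 were found. Their kidney values and the difference of Wnk4 in Dchs1 heart were already known when the set was drawn up. The libraries came from heart, kidney, liver and lung of heterozygous Dchs1+/- mice (Dchs1 Het) and heterozygous Fat4 mice (Fat4 Het), both made with VelociGene technology, and from wild-type (WT) littermates of each line, all on a C57BL/6NTac background. Dchs1 and Fat4 encode large cadherins that bind each other between neighbouring cells. The labels name no treatment, age, sex, batch or time of collection, and do not describe the alleles further. Each of the 16 groups held 30 libraries except Dchs1 Het liver with 29, 479 in all, and the kidney comparisons had 30 WT and 30 Het libraries per line.

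The distal nephron recovers salt from the tubular fluid in steps. The thick ascending limb takes up sodium, potassium and chloride through the cotransporter encoded by Slc12a1, the target of loop diuretics, and secretes uromodulin, encoded by Umod. The distal convoluted tubule uses the thiazide-sensitive sodium chloride cotransporter encoded by Slc12a3, and the connecting tubule and collecting duct use the epithelial sodium channel, whose subunits are encoded by Scnn1a, Scnn1b and Scnn1g and which aldosterone controls. WNK kinases, encoded by Wnk1 and Wnk4, act through the kinases of Stk39 and Oxsr1 to switch on the cotransporters, and are removed by the ubiquitin ligase of Klhl3 and Cul3. Trpv5 encodes the apical calcium channel of the late distal tubule and Calb1 the calcium buffer calbindin of the same cells. The sodium channel is also the main route of fluid clearance across the lung epithelium.

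The members lie on 6 chromosomes, with 3 on chromosome 7 (Umod, Scnn1b and Scnn1g) and 3 on chromosome 6 (Scnn1a, Wnk1 and Trpv5). Dchs1 is on chromosome 7 as well, and Fat4 is on chromosome 3. Scnn1g (chr7:121734420-121768482) and Scnn1b (chr7:121865038-121918728) are neighbours 96.6 kb apart. The RefSeq promoter table (GRCm38.p6, while the submitters name GRCm38) held 8 of the 10 members and no entry for Scnn1a and Calb1. The 250 bases before the start in that table, which for Scnn1g and Wnk4 lies slightly inside the outer bound of the gene, are shown. Those of Scnn1b and Scnn1g are printed because their levels varied together across libraries. Wnk4 is added because it differed in Dchs1 heart, and Umod because its kidney difference took opposite directions in the lines. Capitals mark the GC box GGGCGG on either strand in the first 3 and the HNF1 motif GTTAAT in Umod. HNF1 factors are transcription factors of the renal epithelium. The Scnn1b window is chr7:121864788-121865037 (+), the Scnn1g window chr7:121734229-121734478 (+), the Wnk4 window chr11:101260317-101260566 (+) and the Umod window chr7:119479263-119479512 (-).
Scnn1b: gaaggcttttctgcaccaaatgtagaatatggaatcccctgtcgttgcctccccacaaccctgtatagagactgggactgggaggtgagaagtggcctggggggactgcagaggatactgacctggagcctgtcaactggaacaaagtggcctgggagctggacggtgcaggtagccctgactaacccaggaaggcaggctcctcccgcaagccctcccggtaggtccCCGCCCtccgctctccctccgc
Scnn1g: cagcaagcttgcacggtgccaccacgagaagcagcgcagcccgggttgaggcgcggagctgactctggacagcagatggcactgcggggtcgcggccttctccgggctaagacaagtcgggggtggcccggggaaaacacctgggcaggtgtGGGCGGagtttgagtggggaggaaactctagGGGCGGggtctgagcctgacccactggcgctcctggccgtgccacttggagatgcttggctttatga
Wnk4: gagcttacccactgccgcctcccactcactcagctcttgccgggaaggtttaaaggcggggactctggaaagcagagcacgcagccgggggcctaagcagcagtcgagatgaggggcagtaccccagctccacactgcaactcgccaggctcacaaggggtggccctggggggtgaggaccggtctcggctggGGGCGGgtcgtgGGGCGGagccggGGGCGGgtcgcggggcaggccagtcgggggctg
Umod: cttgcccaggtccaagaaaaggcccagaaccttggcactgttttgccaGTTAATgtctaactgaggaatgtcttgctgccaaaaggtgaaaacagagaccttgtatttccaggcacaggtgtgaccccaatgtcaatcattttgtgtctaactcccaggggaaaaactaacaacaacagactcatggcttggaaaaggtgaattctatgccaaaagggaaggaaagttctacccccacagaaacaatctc

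The GC box was found 1 time before Scnn1b, 2 times before Scnn1g, 3 times before Wnk4, 2 times before Slc12a3 and 4 times before Wnk1, and not before Umod, Slc12a1 or Trpv5. Over all 32851 promoter windows of this length, 32.7% held it. GTTAAT was in the Umod window alone among the 8, against 6.43% of all windows. The glucocorticoid receptor motif TGTTCT, in 16.1% of all windows, was in none of the 8. The motifs do not overlap in the windows shown, and these matches are a description of the sequence only.

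Across tissues the members fell into a kidney set, a lung set and a pair found everywhere. Levels between genes are compared in TPM, in which reads are scaled by transcript length and library. In WT kidney of the Dchs1 line the medians ran from Umod with 463 TPM (193 to 933) and Slc12a1 with 128 TPM (68.3 to 261) through Slc12a3 with 35.9, Wnk1 with 29.9, Wnk4 with 24.4, Scnn1a with 22.8, Calb1 with 12.4, Scnn1b with 7.35 and Scnn1g with 4.48 to Trpv5 with 0.46 TPM. Every neighbouring pair in that order overlapped in range over the 30 libraries. In the Fat4 line the order was the same except that Wnk4 (33.9 TPM) stood before Wnk1 (31.8 TPM), and here Umod with 891 TPM (554 to 1475) lay clear of Slc12a1 with 224 TPM (119 to 423), which lay clear of Slc12a3. Umod, Slc12a1, Calb1 and Trpv5 were almost confined to kidney. Among the 359 libraries of the other tissues, Umod had 0 reads in 304, Slc12a1 in 276, Calb1 in 264 and Trpv5 in 353. The highest values there were 54 reads of Umod and 8 of Slc12a1.

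**Figure D1:**
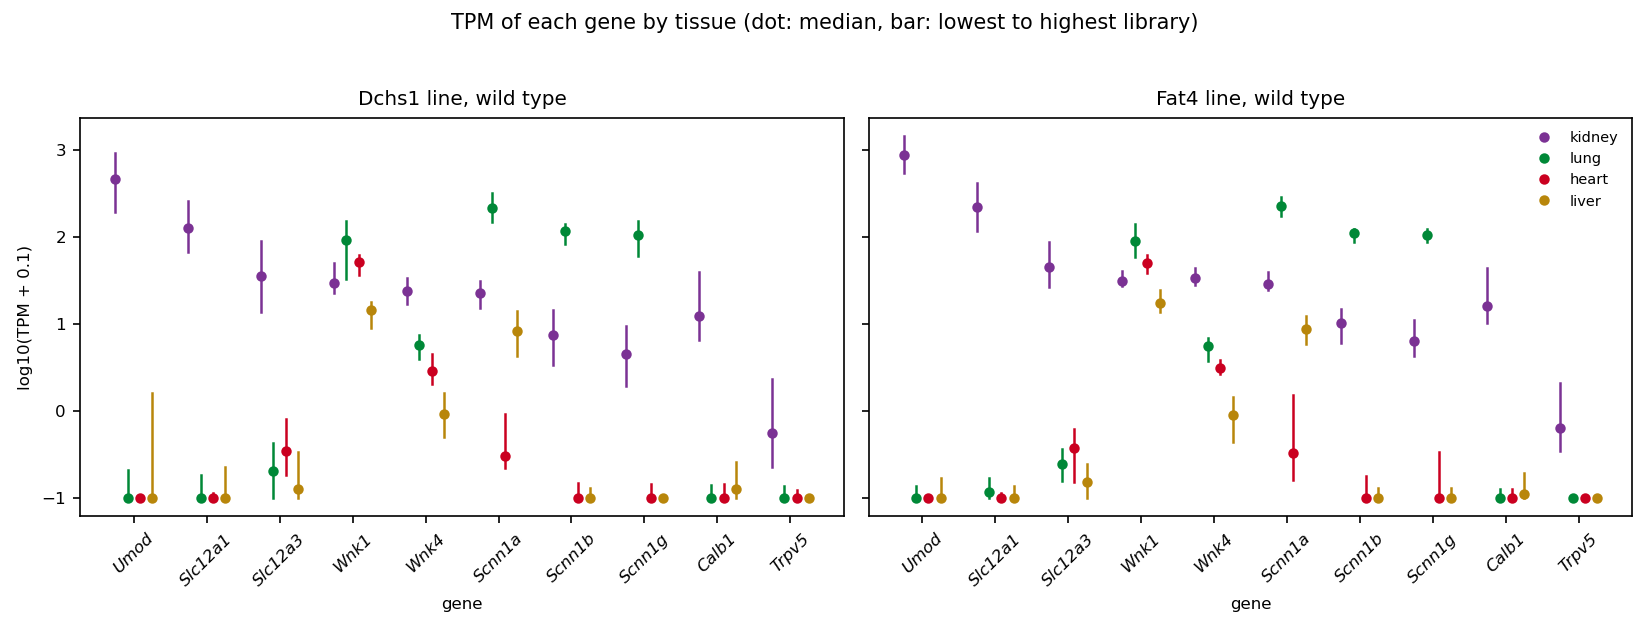
Levels of the 10 genes in wild-type heart, kidney, liver and lung of each line, on the y axis as log10(TPM + 0.1), with a dot at the median of 30 libraries and a bar from the lowest to the highest. Umod, Slc12a1, Slc12a3, Wnk4, Calb1 and Trpv5 were highest in kidney, and the 3 sodium channel genes and Wnk1 were highest in lung.

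The sodium channel genes had their highest level in lung. Scnn1a had a median of 215 TPM in WT lung of the Dchs1 line against 22.8 in kidney, 8.28 in liver and 0.21 in heart, and the ranges of these tissues did not overlap. Scnn1b had 118 TPM in lung and 7.35 in kidney, and Scnn1g 106 and 4.48, with medians of 0 in heart and liver. In lung, Scnn1a stood above Scnn1b without overlap, while Scnn1b, Scnn1g and Wnk1 overlapped. Lung medians of the Fat4 line were 230 TPM for Scnn1a, 111 for Scnn1b and 107 for Scnn1g. Wnk1 was present in every tissue, with WT medians in the Dchs1 line of 93.6 TPM in lung, 51.8 in heart, 29.9 in kidney and 14.6 in liver. Lung, heart and kidney overlapped in range, and kidney and liver did not. Wnk4 was highest in kidney at 24.4 TPM, followed by 5.69 in lung, 2.77 in heart and 0.83 in liver. Its lung and heart ranges overlapped, and the other neighbours did not. Slc12a3 outside kidney stayed at 0.25 TPM in heart, 0.11 in lung and 0.03 in liver.

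The tissue labels held against their defining markers. Slc34a1 was at a median of 1062 TPM in Dchs1 WT kidney, Myh6 at 4206 TPM in heart, Alb at 51316 TPM in liver and Sftpc at 24366 TPM in lung. The targeted genes were lower in kidney. Dchs1 fell by 1.19 on the log2 scale in kidneys of its own line, below the WT median in 30 of 30 Het libraries, and Fat4 fell by 1.07 in those of its own. Between 10720364 and 32282525 reads were assigned to genes in a library. Every library carried at least 425 reads of the Y-linked gene Ddx3y and at most 42.1 of Xist. In 1 Dchs1 WT liver library Umod had 54 reads, in 1 Fat4 Het kidney library 6 heart muscle genes summed to 45.4 TPM (group median 2.48), in 1 Fat4 WT heart library 8 lung epithelium genes summed to 1024 TPM (group median 113), and in 2 Dchs1 Het lung libraries 5 hepatocyte genes summed to 35.7 and 18.3 TPM (group median 1.97). Leaving these libraries out changed the call of no member within a tissue and line, and their values without them are given beside the results. Library numbers in the labels fall into separate runs, called stretches here, which stand in for an unknown batch. In each Dchs1 tissue and in Fat4 kidney 12 libraries lie outside the longest stretch.

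In the Dchs1 kidney, sodium channel and calcium genes rose in Het libraries. Het was compared with WT by edgeR's quasi-likelihood test with Benjamini-Hochberg (BH) adjustment over 14142 genes, and a gene was called at an adjusted p under 0.05. Of the 10 members 7 were called higher and 0 lower. Over all genes tested, 23.4% were called higher and 23.8% lower, so a call was common in this comparison. An unadjusted p under 0.05 was reached by 9 members, of which 0 were lower, and DESeq2 also called 7 higher and 0 lower. The median log2 fold change of the 10 was 0.26, against 0.01 over all genes. The kidney values were known when the set was drawn up, so these counts and this median only describe the set. In bulk tissue, a change in the share of a cell type and a change of RNA per cell cannot be told apart.

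All 3 subunits of the sodium channel, the aldosterone-regulated entry step for sodium, rose. Scnn1a, the alpha subunit, ran from 41 to 80.4 CPM (library-scaled read counts, normalised by TMM) in WT with a median of 57.1, and from 68.4 to 109 in Het with a median of 82.3. All 30 Het libraries lay above the WT median, 19 of them above the highest WT library. Its log2 fold change was 0.54 ± 0.056 (SE, n = 30 and 30, adjusted p = 3.81e-12, edgeR). Scnn1b ran from 9.74 to 23 CPM in WT (median 13.9) and from 14.8 to 23.3 in Het (median 18.9). It rose by 0.37 ± 0.055 (adjusted p = 9.53e-08, edgeR) with 30 of 30 Het libraries above the WT median, though only 2 exceeded the highest WT library. Scnn1g ran from 6.05 to 16.4 CPM in WT (median 9.54) and from 8.15 to 16.6 in Het (median 11.4), a rise of 0.28 ± 0.070 (adjusted p = 0.000783, edgeR) in 26 of 30 libraries. The groups overlapped for all 3 subunits.

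**Figure D2:**
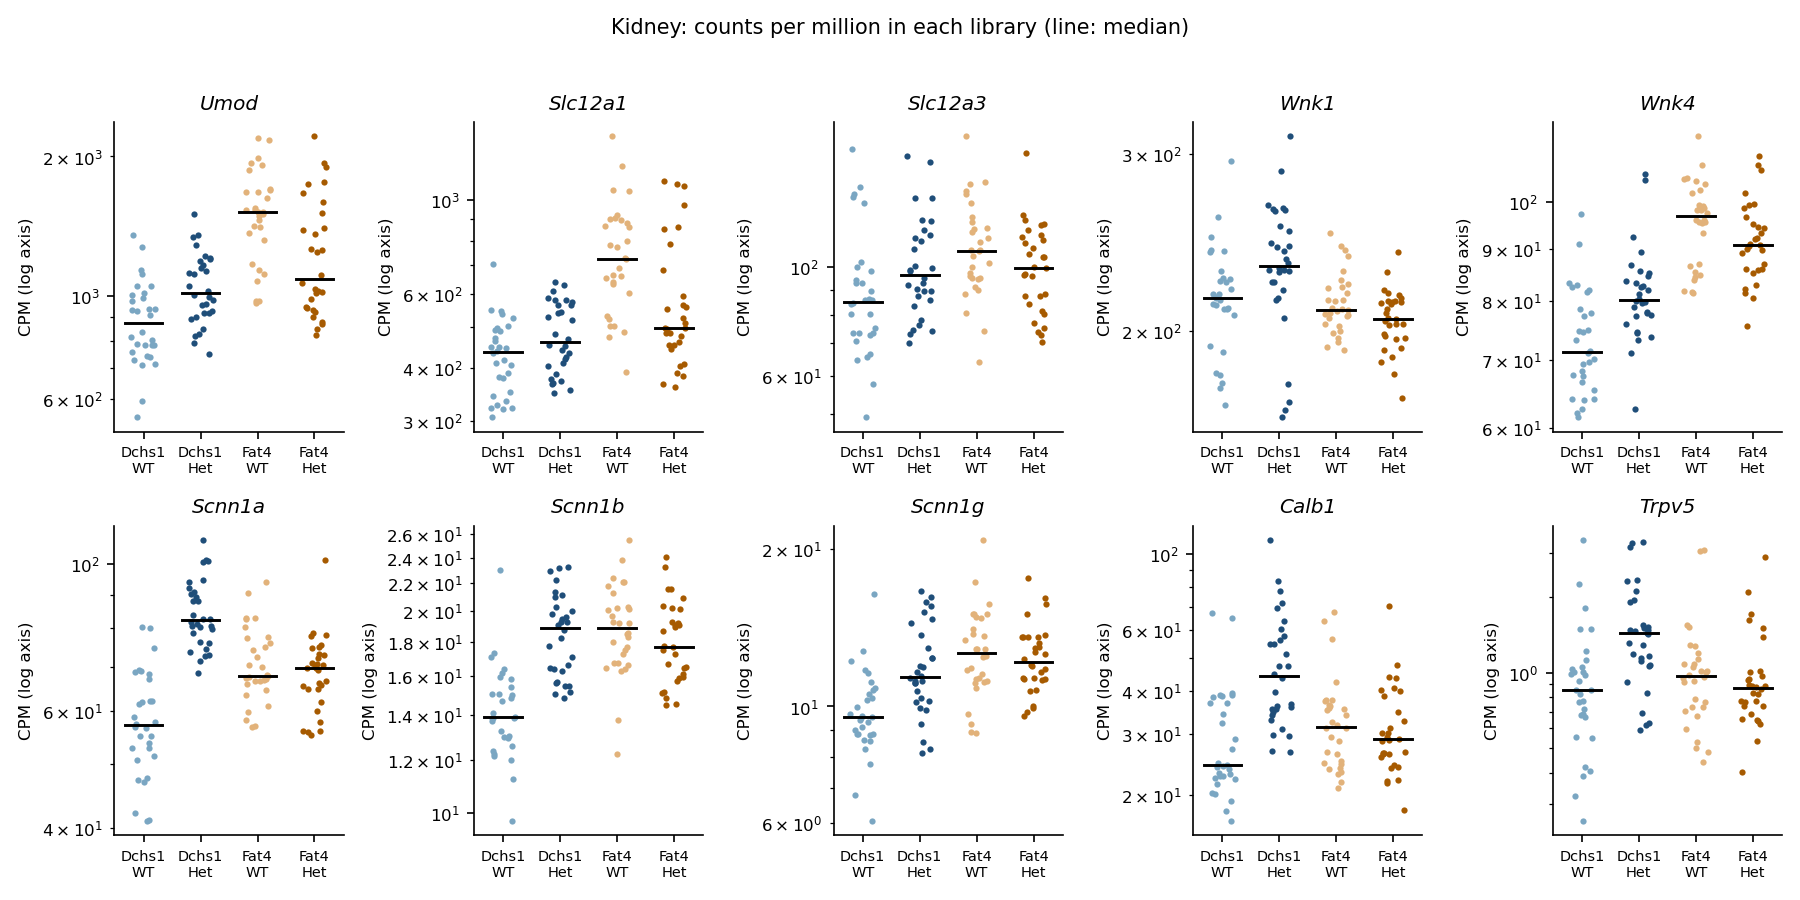
Kidney levels of the 10 genes in each library, in CPM on log axes, for WT and Het of the Dchs1 and Fat4 lines, with a line at the median of 30 libraries. Scnn1a, Scnn1b and Calb1 lie above the WT median in all 30 Dchs1 Het libraries, while Umod and Slc12a1 lie lower in most Fat4 Het libraries.

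The calcium genes showed the largest fold changes of the set and the widest spread. Calb1 ran from 16.8 to 67.4 CPM in WT (median 24.3) and from 26.6 to 110 in Het (median 44.3). All 30 Het libraries lay above the WT median, 17 WT libraries lay below the lowest Het library, and the log2 fold change was 0.70 ± 0.133 (adjusted p = 1.33e-05, edgeR). Trpv5 was close to the limit of what these totals resolve, with a median of 14.7 reads per library in WT and 27.8 in Het. It ran from 0.26 to 3.39 CPM in WT (median 0.85) and from 0.59 to 3.31 in Het (median 1.44), and rose by 0.63 ± 0.185 (adjusted p = 0.00373, edgeR) in 25 of 30 libraries.

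Of the thick limb pair only uromodulin was called. Umod ran from 548 to 1356 CPM in WT (median 876) and from 750 to 1505 in Het (median 1015), and 25 of 30 Het libraries lay above the WT median. Its log2 fold change was 0.24 ± 0.070 (adjusted p = 0.00386, edgeR). Slc12a1 ran from 306 to 705 CPM in WT (median 437) and from 350 to 638 in Het (median 461), so that the groups covered nearly the same span. Its log2 fold change of 0.15 ± 0.071 had an adjusted p of 0.0815 (edgeR), with 18 of 30 Het libraries above the WT median. Slc12a3, the thiazide target, had 85 CPM (49.3 to 175) in WT and 96.5 (70 to 169) in Het, a difference of 0.17 ± 0.097 (adjusted p = 0.14, edgeR).

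The kinases moved little in kidney. Wnk4, which governs Slc12a3 in the distal tubule, ran from 61.4 to 97.3 CPM in WT (median 71.2) and from 62.7 to 107 in Het (median 80.2). It rose by 0.16 ± 0.041 (adjusted p = 0.00141, edgeR) in 28 of 30 libraries. Wnk1 ran from 169 to 295 CPM in WT (median 216) and from 164 to 312 in Het (median 232), and its difference of 0.11 ± 0.050 had an adjusted p of 0.0651 (edgeR). The kidney-specific short form and the long form of Wnk1 are summed in a gene count.

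Within stretches the kidney calls differed in number. In the longest stretch alone (23 WT and 25 Het libraries) 8 of the 10 were called, Wnk1 being added, while among the 7 WT and 5 Het libraries outside it 2 were called. Those 2 were Scnn1a with 0.38 ± 0.078 (adjusted p = 0.00578, edgeR) and Scnn1b with 0.46 ± 0.107 (adjusted p = 0.013, edgeR). There Calb1 differed by 0.49 ± 0.170, Umod by 0.22 ± 0.114, Scnn1g by 0.32 ± 0.161 and Trpv5 by 0.17 ± 0.252, and Slc12a3 by -0.06 ± 0.165. On TPM, limma called 9 of the 9 members that passed its filter, with Slc12a1 at 0.25 and Slc12a3 at 0.28 on the log2(TPM + 1) scale. The median over all genes stood at 0.08 on that scale, against 0.01 in the counts.

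In the Fat4 kidney the thick limb genes went the other way. Of the 10 members 0 were called higher, with 9.21% of 14014 genes called higher, and 2 were called lower, with 7.87% called lower (edgeR, BH). In the higher direction 0 reached an unadjusted p under 0.05, and DESeq2 called 0 higher and 2 lower. Here too the counts only describe a set drawn up with its kidney values known. Umod ran from 967 to 2192 CPM in WT (median 1515) and from 824 to 2213 in Het (median 1089). It fell by 0.28 ± 0.094 on the log2 scale (adjusted p = 0.0337, edgeR). Below the WT median lay 23 of 30 Het libraries, and 9 lay below the lowest WT library. Slc12a1 ran from 392 to 1412 CPM in WT (median 726) and from 362 to 1109 in Het (median 498), and fell by 0.35 ± 0.117 (adjusted p = 0.0297, edgeR) in 23 of 30. For both genes the groups overlapped over most of their span. Without the Het library that held heart transcripts, Umod fell by 0.27 (adjusted p = 0.0403, edgeR) and Slc12a1 by 0.35 (adjusted p = 0.0328, edgeR).

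The other 8 members had differences between -0.14 and -0.04 in the Fat4 kidney. Slc12a3 differed by -0.14 ± 0.078, Wnk1 by -0.06 ± 0.026, Wnk4 by -0.06 ± 0.034, Scnn1a by -0.04 ± 0.048, Scnn1b by -0.06 ± 0.053, Scnn1g by -0.05 ± 0.063, Calb1 by -0.07 ± 0.110 and Trpv5 by -0.09 ± 0.169. Their adjusted p ran from 0.133 for Wnk1 to 0.76 for Trpv5 (edgeR), and Wnk1 alone had an unadjusted p under 0.05. The calls on Umod and Slc12a1 were present in the longest stretch alone, where they fell by 0.30 ± 0.101 and 0.38 ± 0.126 (adjusted p = 0.0364 and 0.0351, edgeR). Among the 12 libraries outside it the differences were -0.16 ± 0.186 and -0.24 ± 0.262, neither called. By limma on log2(TPM + 1) Slc12a1 alone was called, and Umod had an adjusted p of 0.063.

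**Figure D3:**
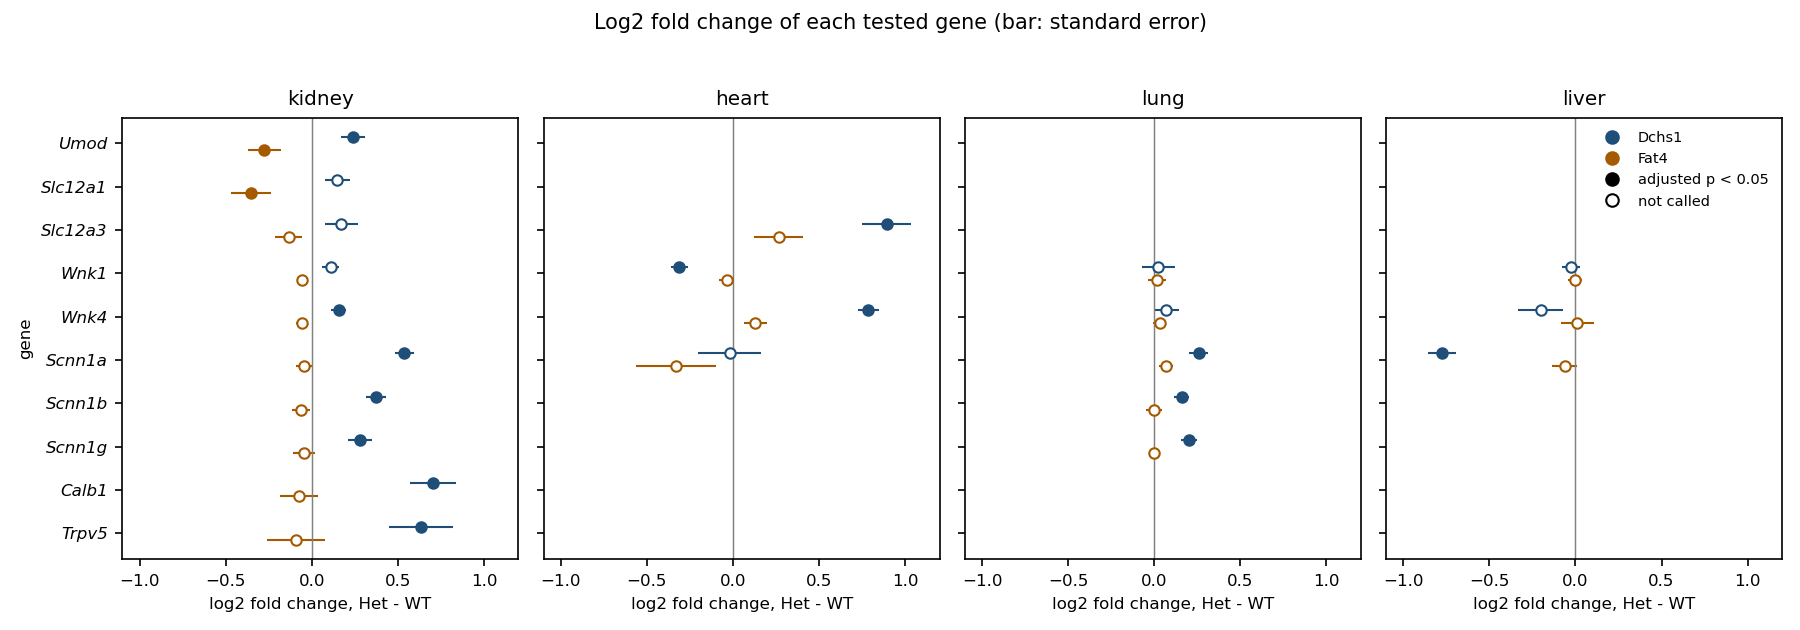
Log2 fold change of Het against WT (x axis) of each member that passed the count filter, by tissue, for the Dchs1 and Fat4 lines, with bars of 1 standard error and filled dots for an adjusted p under 0.05. In kidney the Dchs1 values lie right of the Fat4 values for all 10 genes, and in heart Wnk4 and Slc12a3 lie far right of 0 in the Dchs1 line.

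The kidney difference between Het and WT was itself compared between the lines. For all 10 members it was higher in the Dchs1 line, against 17% of genes called higher in this test (interaction of line and genotype, edgeR, BH). As the kidney values were known when the set was drawn up, this count is a description. The gap came to 0.59 ± 0.075 for Scnn1a (adjusted p = 1.68e-10, edgeR) and 0.52 ± 0.118 for Umod (adjusted p = 0.000231, edgeR). For Slc12a1 it was 0.51 ± 0.139 (adjusted p = 0.00232, edgeR). For Slc12a3 it was 0.32 ± 0.127 (adjusted p = 0.0437, edgeR), and this call was lost without the filter on low counts (adjusted p = 0.0723) and without 1 outlying library (adjusted p = 0.0657). The WT groups of the lines stood apart as well, with median Scnn1a at 22.8 TPM (Dchs1) and 28.9 TPM (Fat4) and median Umod at 463 and 891 TPM. Het medians were 35.4 and 28.8 TPM for Scnn1a and 618 and 668 for Umod. The lines were deposited as separate tables, and the difference between their WT groups was not tested.

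Genes around the members in the same pathway were called in the Dchs1 kidney about as often as all genes. Of 17 tested genes that regulate or serve the WNK pathway 4 rose and 4 fell, next to 23.4% and 23.8% of all genes, with a median log2 fold change of -0.02. Stk39, the kinase that WNKs switch on, rose by 0.32 ± 0.037 (adjusted p = 9.93e-11, edgeR), and Sgk1, the aldosterone-induced kinase that raises channel activity, by 0.98 ± 0.119 (adjusted p = 4.03e-10, edgeR). Cab39l, a cofactor of Stk39, fell by 0.17 ± 0.030 and the potassium chloride cotransporter gene Slc12a7 by 0.28 ± 0.058. Klhl3, the receptor through which WNK kinases are degraded, rose by 0.46 ± 0.136 (adjusted p = 0.00412, edgeR). Oxsr1, Cul3 and Nedd4l were not called, with log2 fold changes of -0.02, -0.03 and 0.00.

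The segment lists held calls in both directions in that kidney, to be read against the same shares of all genes. Of 17 thick limb genes besides the members 7 rose and 3 fell, with a median of 0.03. The 18 listed genes summed to medians of 4251 TPM in WT and 3918 TPM in Het, with overlapping ranges. Egf, made by thick limb and distal tubule, rose by 0.69 ± 0.089 and the calcium sensor Casr by 0.70 ± 0.133, while the sodium pump subunit gene Fxyd2 fell by 0.42 ± 0.054. Of 14 distal tubule genes 7 rose and 2 fell, with a median of 0.19. The 15 listed genes summed to medians of 523 TPM in WT (308 to 817) and 673 TPM in Het (499 to 932). The magnesium channel gene Trpm6 rose by 0.66 ± 0.097, the potassium channel gene Kcnj10 by 0.31 ± 0.048 and the monocarboxylate transporter gene Slc16a7 by 0.45 ± 0.065. Trpm6 was low here, with a median of 0.91 TPM in WT kidney against 21.3 TPM in WT lung of the line. Of 17 collecting duct genes 8 rose and 4 fell, with a median of 0.12. They summed to medians of 546 TPM in WT (262 to 767) and 591 TPM in Het (419 to 717). Kcnma1, a potassium secretion channel, rose by 0.93 ± 0.085 and the protease gene Tmprss2 by 0.27 ± 0.049, while Prss8, a protease that activates the sodium channel, fell by 0.23 ± 0.034. Defining collecting duct markers had WT and Het medians of 91.8 and 65.3 TPM (Aqp2), 32.9 and 27.1 (Fxyd4), 39.9 and 38.5 (Aqp3) and 33.7 and 35.5 (Hsd11b2). For each the ranges overlapped. Of 13 calcium genes 7 rose and 4 fell, with a median of 0.09. The sodium calcium exchanger gene Slc8a1 rose by 0.27 ± 0.056, and the parathyroid hormone receptor gene Pth1r and Klotho (Kl) fell by 0.36 ± 0.045 and 0.67 ± 0.089. Some genes stand in more than 1 of these lists, such as Sgk1, Egf and Casr.

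**Figure D4:**
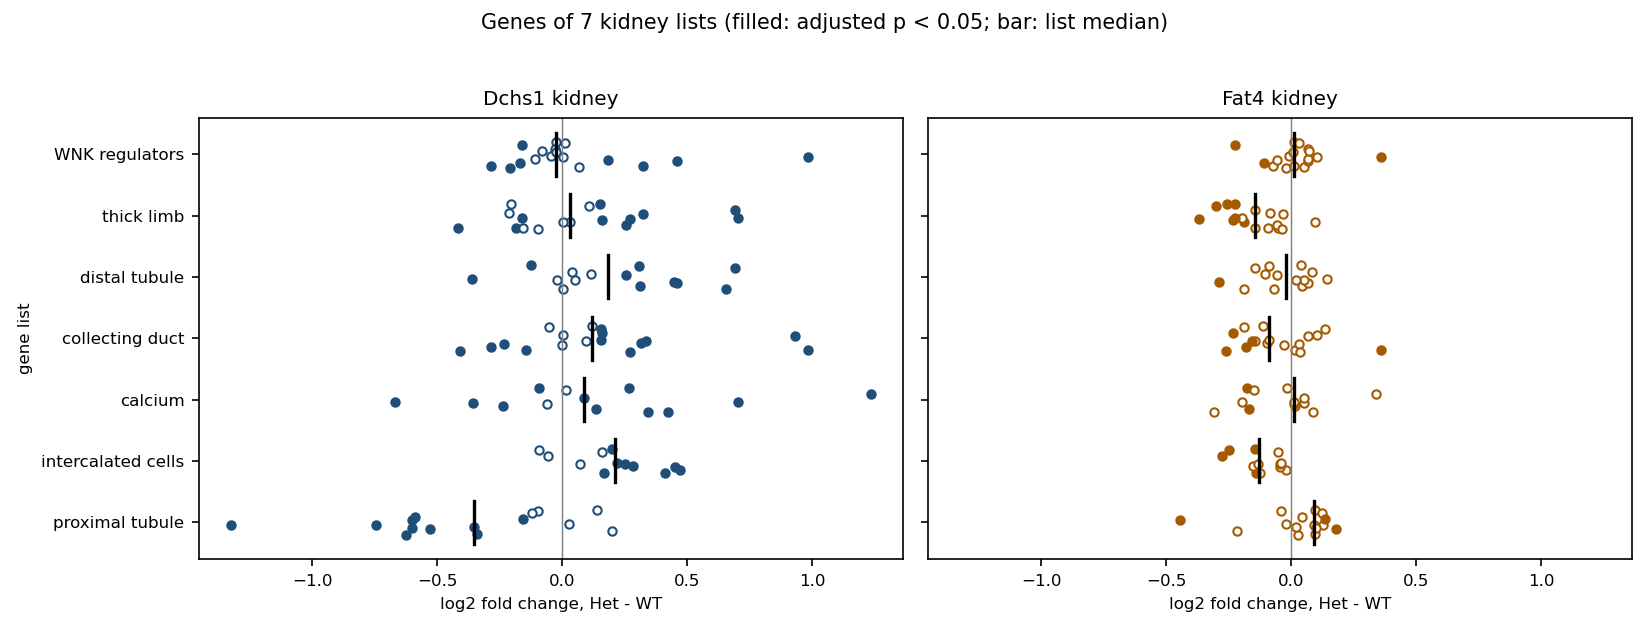
Log2 fold change of Het against WT in kidney (x axis) for the tested genes of 7 lists, members left out, in the Dchs1 and Fat4 lines, with filled dots for an adjusted p under 0.05 and a bar at the list median. In the Dchs1 kidney the medians run from -0.35 for proximal tubule to 0.21 for intercalated cells, and in the Fat4 kidney from -0.15 for thick limb to 0.09 for proximal tubule.

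Markers of other kidney cells moved beside the members in the Dchs1 line. Over all genes in this comparison 23.4% were called higher and 23.8% lower, to be read beside each count below. Of 15 proximal tubule genes 0 rose and 10 fell, with a median of -0.35 (edgeR). At an unadjusted p under 0.05, 0 were higher. Their summed level was 53458 TPM in WT (median, 32791 to 62944) and 33211 TPM in Het (22428 to 46126). Of 12 intercalated cell genes 8 rose and 0 fell, with 0 lower at an unadjusted p under 0.05 and a median of 0.21. Their summed level had medians of 222 and 277 TPM, and its ranges, 132 to 324 and 163 to 357 TPM, overlapped. Of 10 genes induced or bound by aldosterone and glucocorticoid 8 rose and 1 fell, with a median of 0.68. Fkbp5 rose by 0.75 ± 0.141 and Per1 by 0.58 ± 0.140. Of 6 leukocyte genes 0 rose and 5 fell, with 0 higher at an unadjusted p under 0.05, and their summed level had medians of 141 and 113 TPM. Of 14 clock genes 5 rose and 6 fell. Among them Dbp fell by 1.68 ± 0.190 and Per3 by 0.65 ± 0.092, and Cry1 rose by 0.88 ± 0.103. The part of each of these in the member differences was not tested.

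In the Fat4 kidney part of the thick limb list fell with Umod and Slc12a1, with 9.21% of all genes called higher and 7.87% lower. Of 17 thick limb genes besides the members 0 rose and 7 fell, with 1 higher at an unadjusted p under 0.05 (edgeR) and a median of -0.15. The other 10 were not called. The summed level of the 18 listed genes hardly differed, with medians of 4845 TPM in WT and 4818 TPM in Het. Kcnj1, the potassium channel that recycles potassium for the cotransporter of Slc12a1, fell by 0.23 ± 0.061, the prostaglandin receptor gene Ptger3 by 0.37 ± 0.077 and Tmem72 by 0.30 ± 0.065. Of 14 distal tubule genes 0 rose and 1, Slc16a7, fell, and of 13 calcium genes 0 rose and 2, Slc8a1 and Atp2b4, fell, each list with 0 higher at an unadjusted p under 0.05. Of 17 collecting duct genes 1 rose and 4 fell, and of 17 WNK pathway genes 1 rose and 2 fell. The 1 collecting duct and WNK pathway gene that rose was Sgk1, by 0.36 ± 0.093 (adjusted p = 0.00563, edgeR). Of 12 intercalated cell genes 0 rose and 4 fell, with 0 higher at an unadjusted p under 0.05, and of 15 proximal tubule genes 2 rose and 1 fell. The summed proximal tubule level had medians of 53552 TPM in WT and 56822 TPM in Het. Of 5 endothelial genes 0 rose and 4 fell, with a median of -0.12, and of 6 podocyte genes 0 rose and 2 fell, with a median of -0.10, each list with 0 higher at an unadjusted p under 0.05. Their summed levels were 124 and 119 TPM for endothelium and 126 and 118 TPM for podocytes. The part of these markers in the fall of Umod and Slc12a1 was not tested. Of 10 aldosterone and glucocorticoid genes 3 rose and 0 fell, with 1 lower at an unadjusted p under 0.05. Of 14 clock genes 2 rose and 1 fell, with Cry1 at 0.31 ± 0.096 and Dbp at -0.41 ± 0.173, the latter not called.

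Within a group many pairs of members were correlated. Correlations were computed over the 60 kidney libraries of a line after subtracting the group mean, 90 pairs in all, each with 100000 permutations and BH adjustment over the 90. At an adjusted p under 0.05 Pearson's r passed for 25 of 45 pairs in the Dchs1 line, 1 of them negative, and for 34 of 45 in the Fat4 line, with a median r over all pairs of 0.29 and 0.44. The share among other gene pairs was not computed, so these counts do not set the members apart. Libraries were permuted without regard to stretch, and some pairs changed sign between stretches. In the Dchs1 line Slc12a3 and Scnn1b had r = 0.59 in the longest stretch and -0.58 outside it. The pairs described are those of 1 segment, channel or pathway, followed by pairs across segments, all chosen after their values were seen. Umod and Slc12a1, both thick limb genes, had r = 0.90 in the Fat4 line (Spearman's rho 0.89, permutation p = 1e-05, adjusted 4.5e-05) and r = 0.56 in the Dchs1 line (rho 0.50, permutation p = 1e-05, adjusted 4.5e-05). A p of 1e-05 is the smallest that these permutations can give. The p of rho was 1e-05 in the Fat4 line (adjusted 6.92e-05) and 0.00012 in the Dchs1 line (adjusted 0.00045). Without the 2 libraries farthest in Umod, r was 0.89 and 0.50, and in the longest stretch 0.90 and 0.62, and outside it 0.93 and 0.60. Slc12a3 and Calb1, both of the distal convoluted tubule, had r = 0.83 in the Dchs1 line (rho 0.79) and 0.74 in the Fat4 line (rho 0.73). Each r and rho of this pair had a permutation p of 1e-05 (adjusted 4.5e-05 for r and 6.92e-05 for rho). In the longest stretch these were 0.87 and 0.74, outside it 0.79 and 0.70, and without the 2 farthest libraries 0.79 and 0.65.

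The neighbouring channel genes Scnn1b and Scnn1g, whose promoters are printed above, had r = 0.81 in the Dchs1 line (rho 0.76) and 0.71 in the Fat4 line (rho 0.68), again each with a permutation p of 1e-05. In the longest stretch they had 0.81 and 0.77, outside it 0.86 and 0.54, and without the 2 farthest libraries 0.75 and 0.69. Scnn1a, on another chromosome, followed Scnn1b less closely. Its r was 0.17 in the Dchs1 line (rho 0.23, permutation p = 0.2 and 0.0842) and 0.43 in the Fat4 line (rho 0.48, permutation p = 0.00069 and 0.00016), and without the 2 farthest libraries 0.12 and 0.40. Calb1 and Trpv5 had r = 0.68 (rho 0.60, both permutation p = 1e-05) and 0.65 (rho 0.50, permutation p = 1e-05 and 3e-05) in Dchs1 and Fat4 kidney. Without the 2 farthest libraries r was 0.63 and 0.53, in the longest stretch 0.67 and 0.61, and outside it 0.73 and 0.89. The cotransporter genes Slc12a1 and Slc12a3 had r = 0.01 in each line (permutation p = 0.941 and 0.969), with rho -0.06 and 0.08 (permutation p = 0.666 and 0.52). Wnk1 and Wnk4 had r = -0.53 in the Dchs1 line (rho -0.40, permutation p = 5e-05 and 0.0016), but the relation did not hold in the longest stretch, where r was 0.10, against -0.48 in the 12 libraries outside it. In the Fat4 line their r was 0.06 (permutation p = 0.649) and rho 0.01 (permutation p = 0.922).

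The pairs across segments given next had r between 0.42 and 0.68. In the Dchs1 and Fat4 lines, in that order, Umod and Wnk4 had r = 0.52 and 0.68 (rho 0.46 and 0.68), and Umod and Scnn1b had r = 0.51 and 0.55 (rho 0.42 and 0.58). Wnk1 and Calb1 had r = 0.59 and 0.63 (rho 0.57 and 0.59), and Scnn1g and Trpv5 had r = 0.42 and 0.65 (rho 0.34 and 0.55). Within the longest stretch these r were 0.20 and 0.69, 0.53 and 0.54, 0.79 and 0.65, and 0.54 and 0.66. In the 12 libraries outside it they were 0.78 and 0.51, 0.70 and 0.41, 0.48 and 0.73, and -0.14 and 0.68. Without the 2 farthest libraries they were 0.56 and 0.63, 0.37 and 0.50, 0.64 and 0.60, and 0.29 and 0.55. The largest permutation p of these r was 0.00075 and of these rho 0.00803. The relation of Umod and Wnk4 in the Dchs1 line did thus not hold at the same size within the longest stretch. That of Scnn1g and Trpv5 in the same line had the opposite sign outside this stretch. Other pairs across segments were lower, such as Slc12a1 and Calb1 with r = 0.14 and 0.26 (permutation p = 0.297 and 0.0466).

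Among 13127 other genes, those most alike to each member in both lines were ranked by the lower r of the lines. For Umod they were Kcnj1 (r = 0.79 in Dchs1 and 0.91 in Fat4 kidney), Tspan8 and Tmc4. For Slc12a1 they were Cacnb4 (0.77 and 0.84), Sim1 and Cyfip2. For Slc12a3 they included Calb1 and Atp4a, and for Calb1 they were Slc12a3, Slc26a4 and Malrd1. Trpv5 was followed by Malrd1 (0.72 and 0.69), Calb1 and Ptprf. Scnn1a was nearest to Esrrb (0.72 and 0.73), Dnajc7 and Fbxo44. Scnn1b was nearest to Scnn1g, Adgrg1 and Emb, and Scnn1g to Scnn1b, Hsd11b2 (0.74 and 0.71) and Slit2. Hsd11b2 encodes the enzyme that keeps glucocorticoid from the aldosterone receptor. Wnk1 was nearest to Oxgr1 (0.76 and 0.71), Klhl3 (0.68 and 0.71) and Setd2, and Wnk4 to Rap1gap (0.74 and 0.81), Hk1 and Pkm. The values are a description across libraries, and the part of depth or dissection in them was not tested.

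In the Dchs1 heart, the kinases moved in opposite directions. Wnk4 was higher in every Het library than the WT median, Wnk1 was lower in 29 of 30, and Slc12a3, at a very low level, was higher in 30 of 30. Of the 3 members besides Wnk4 that passed the count filter, 1 was called higher and 1 lower, with 26.1% of 13304 genes called higher and 24.1% lower (edgeR, BH). Wnk4 belongs to the set because of this difference, so it is given as a description. It ran from 6.41 to 13.4 CPM in WT (median 8.41) and from 11.9 to 20.6 in Het (median 14.4). The groups met only at their edges, with 29 WT libraries below the lowest Het library and 20 Het libraries above the highest WT library. The log2 fold change was 0.79 ± 0.062, a 1.73-fold higher level. It was 0.80 ± 0.071 in the longest stretch and 0.72 ± 0.096 in the 12 libraries outside it.

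Wnk1 ran from 250 to 455 CPM in WT heart (median 376) and from 216 to 430 in Het (median 306). It fell by 0.31 ± 0.050 on the log2 scale (adjusted p = 3.53e-07, edgeR), and the groups overlapped. In the longest stretch the fall was 0.31 ± 0.037 and outside it 0.34 ± 0.070. Slc12a3, the kidney cotransporter that these kinases control, had a median of 13 reads per library in WT heart and 24.5 in Het. It ran from 0.21 to 1.68 CPM in WT (median 0.60) and from 0.65 to 2.22 in Het (median 1.21), a rise of 0.89 ± 0.143 (adjusted p = 4.86e-07, edgeR). It rose by 0.91 ± 0.172 in the longest stretch and by 0.80 ± 0.204 outside it. Its level in Dchs1 Het heart, with a median of 0.52 TPM, remained far below the 43.3 TPM of Dchs1 Het kidney. Defining kidney markers were near 0 in WT heart, with Umod at 0 reads in all 120 heart libraries and Slc34a1 at a median of 0 TPM. Scnn1a differed by -0.02 ± 0.185 at a median of 10.5 reads in WT and 11 in Het.

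**Figure D5:**
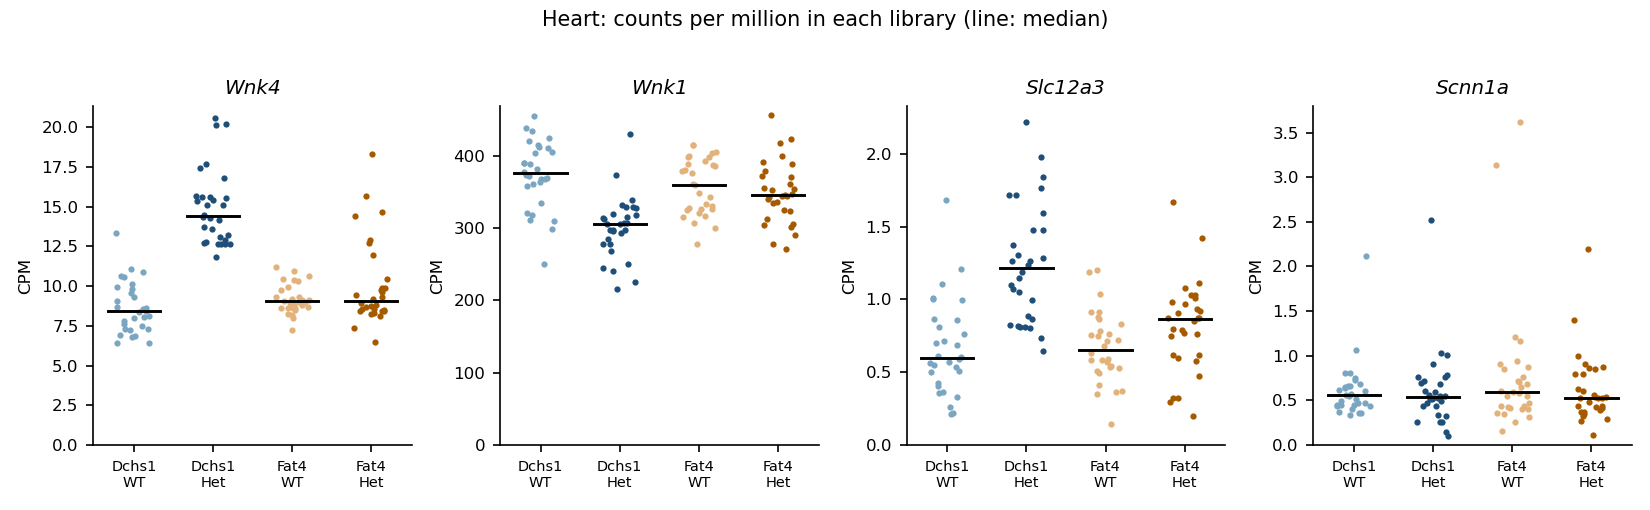
Heart levels of the 4 tested members in each library, in CPM on linear axes from 0, for WT and Het of both lines, with a line at the median of 30 libraries. Dchs1 Het libraries are high in Wnk4 (median 14.4 against 8.41) and low in Wnk1 (306 against 376), while the Fat4 medians of Wnk4 are 9.05 and 9.07.

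The Fat4 heart gave no call among the same 4 genes. With 1.6% of 13213 genes called in either direction, edgeR called 0 of 4 members, and 0 of them reached an unadjusted p under 0.05. DESeq2 also gave 0, and so did limma, whose filter only Wnk1 and Wnk4 passed. Wnk4 ran from 7.26 to 11.2 CPM in WT (median 9.05) and from 6.46 to 18.3 in Het (median 9.07), a difference of 0.13 ± 0.069 (adjusted p = 0.326, edgeR). The medians lay close together, and 7 Het libraries lay above the highest WT library. Without 4 outlying libraries the difference was 0.07 ± 0.063. Slc12a3 differed by 0.27 ± 0.142, Wnk1 by -0.04 ± 0.043 and Scnn1a by -0.33 ± 0.234, the last being -0.14 without the WT library that held lung transcripts.

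The heart differences were compared with those of the other line and of other tissues. Wnk4 is left out of the counts, and its differences are a description. Between the lines 2 of the other 3 heart members differed, against 25.5% of genes called (interaction of line and genotype, edgeR, BH). These were Slc12a3 by 0.62 ± 0.205 (adjusted p = 0.0171) and Wnk1 by -0.28 ± 0.067 (adjusted p = 0.00066). Between heart and kidney of the Dchs1 line all 3 differed, against 34.6% of genes called. Wnk1 differed by -0.44 ± 0.071 (adjusted p = 2.08e-07, edgeR), Scnn1a by -0.57 ± 0.177 (adjusted p = 0.00683, edgeR) and Slc12a3 by 0.71 ± 0.189 (adjusted p = 0.00164, edgeR). Between heart and lung 1 of 2 differed, against 14.7% of genes called, and it was Wnk1 by -0.37 ± 0.109 (adjusted p = 0.0113, edgeR). For Wnk4 the Dchs1 heart difference exceeded that of Fat4 heart by 0.65 ± 0.093, of Dchs1 kidney by 0.62 ± 0.073 and of Dchs1 lung by 0.69 ± 0.094.

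Around the kinases in Dchs1 heart, 8 of 17 tested WNK pathway genes rose and 3 fell, next to 26.1% and 24.1% of all genes, with a median of 0.02. Stk39 and Oxsr1, the kinases that WNKs activate, fell by 0.19 ± 0.040 and 0.13 ± 0.022 (adjusted p = 5.06e-05 and 2.04e-06, edgeR). Nedd4l, the ubiquitin ligase that removes the sodium channel, rose by 0.34 ± 0.049 and Sgk1 by 0.46 ± 0.112. Of 10 aldosterone and glucocorticoid genes 8 rose and 2 fell, with Fkbp5 at 1.03 ± 0.138, and of 15 clock genes 7 rose and 3 fell. Of 6 heart muscle genes 0 rose and 3 fell, with 0 higher at an unadjusted p under 0.05, a median of -0.11 and summed levels of 28140 TPM in WT and 25314 in Het. Of 5 leukocyte genes 0 rose and 2 fell, with 0 higher at an unadjusted p under 0.05 and a median of -0.36, and of 5 endothelial genes 2 rose and 1 fell. The part of these lists in the Wnk4 and Wnk1 differences was not tested. In the Fat4 heart 4 of the 17 WNK pathway genes rose and 0 fell, with 1 lower at an unadjusted p under 0.05, next to 0.969% of all genes called higher and 0.628% lower. They were Sgk1 by 0.40 ± 0.0765, Cab39l by 0.30 ± 0.079, Slc12a4 by 0.10 ± 0.027 and Cab39 by 0.07 ± 0.020. Of 10 aldosterone and glucocorticoid genes 1 rose and 0 fell in the Fat4 heart. At an unadjusted p under 0.05, 4 of the 10 were higher and 0 lower (edgeR), against 1130 and 1146 of 13213 genes.

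In the Dchs1 liver, Scnn1a was the one member that changed, and it went down. Of the 3 members tested (Scnn1a, Wnk1 and Wnk4) 1 was called lower, with 25.4% of 12526 genes called lower (edgeR, BH). Scnn1a ran from 9.38 to 29 CPM in WT (median 18.2, 30 libraries) and from 7.62 to 19.7 in Het (median 10.9, 29 libraries). It fell by 0.78 ± 0.084 on the log2 scale (adjusted p = 2.16e-11, edgeR), and 28 of 29 Het libraries lay below the WT median. The same gene rose in kidney and lung of the line, and the difference between those tissues and liver was not tested. Of 5 hepatocyte genes 2 rose and 2 fell, and they summed to medians of 83974 TPM in WT and 86707 in Het. Of 5 leukocyte genes 0 rose and 3 fell (0 higher at an unadjusted p under 0.05), with a median of -0.51, and of 5 endothelial genes 1 rose and 3 fell, with a median of -0.16, next to 24.3% of all genes called higher. The part of these markers in the fall of Scnn1a was not tested. Without the WT library with Umod reads, Scnn1a fell by 0.75 ± 0.082. In the longest stretch it fell by 0.84 ± 0.085, and among the 12 libraries outside it the difference of -0.51 ± 0.191 was not called (adjusted p = 0.0824, edgeR). Wnk1 differed by -0.02 ± 0.052 and Wnk4 by -0.20 ± 0.133. In the Fat4 liver 0 of 3 were called, with 7.15% of 12484 genes called. Again 0 had an unadjusted p under 0.05, and DESeq2 and limma called 0. Wnk4, at medians of 0.81 TPM in WT and 0.80 TPM in Het, did not pass the limma filter. Scnn1a had medians there of 18.5 CPM in WT and 17.7 in Het, and the difference between lines for Scnn1a was -0.70 ± 0.111 (adjusted p = 5.97e-07, edgeR, with 23.6% of genes called).

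In the Dchs1 lung, where the sodium channel is most abundant, its 3 subunit genes rose by small amounts. Of 5 members tested 3 were called higher, with 9.6% of 15069 genes called higher (edgeR, BH). Scnn1a ran from 358 to 658 CPM in WT (median 422) and from 384 to 721 in Het (median 497), a rise of 0.26 ± 0.054 (adjusted p = 0.000245, edgeR) in 27 of 30 libraries. Scnn1b ran from 129 to 214 CPM in WT (median 165) and from 146 to 223 in Het (median 191), and rose by 0.16 ± 0.043 (adjusted p = 0.00529, edgeR). Scnn1g ran from 140 to 215 CPM in WT (median 172) and from 154 to 256 in Het (median 198), and rose by 0.20 ± 0.046 (adjusted p = 0.000777, edgeR). The groups overlapped for each subunit. The 8 lung epithelium genes summed to medians of 153397 TPM in WT and 154020 in Het, and the 5 endothelial genes to 1266 and 1091. Of 6 leukocyte genes 0 rose and 5 fell (0 higher at an unadjusted p under 0.05), with a median of -0.61 and summed levels of 8740 and 8375 TPM, next to 10.4% of all genes called lower. Of 10 aldosterone and glucocorticoid genes 7 rose and 1 fell, with a median of 0.57. The part of these lists in the subunit rises was not tested. Without the 2 Het libraries that held hepatocyte transcripts the subunits rose by 0.27, 0.17 and 0.21. Wnk1 and Wnk4 differed by 0.02 ± 0.095 and 0.07 ± 0.073 and were not called.

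These lung calls were kept by DESeq2 and with the stretch as covariate, but not on the TPM scale or outside the longest stretch. By limma on log2(TPM + 1) 0 of the 5 were called and 1 had an unadjusted p under 0.05, with Scnn1a at 0.19 (adjusted p = 0.102). Outside the longest stretch, with only 6 WT and 6 Het libraries, the subunits differed by 0.05 ± 0.088, 0.05 ± 0.084 and 0.05 ± 0.083. Of them 0 were called and 0 had an unadjusted p under 0.05 (edgeR). In the Fat4 lung 0 of 5 members passed in edgeR, with 0.136% of 15415 genes called. An unadjusted p under 0.05 was reached by 0 of them, and DESeq2 and limma gave 0 calls. Scnn1a, Scnn1b and Scnn1g differed there by 0.07 ± 0.038, -0.00 ± 0.045 and 0.00 ± 0.031. Of 10 aldosterone and glucocorticoid genes 1 rose and 0 fell in the Fat4 lung, next to 0.11% of all genes called higher. At an unadjusted p under 0.05, 6 of the 10 were higher and 1 lower (edgeR), against 906 and 731 of 15415 genes. Between the lines 1 of 5 members differed, against 5% of genes called, and it was Scnn1g by 0.19 ± 0.054 (adjusted p = 0.022, edgeR). Without the 2 Dchs1 Het lung libraries Scnn1a differed too, by 0.20 ± 0.065 (adjusted p = 0.0458, edgeR).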

How the data were processed

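Polyadenylated RNA of 479 libraries was sequenced. The authors deposited, for each line, estimated counts per gene and TPM. The counts were not all whole (15.5% of values in the Dchs1 and 15.7% in the Fat4 table). Per the submitters' processing notes, bcl2fastq 2.17 and FastQC were run, and the build was GRCm38. The aligner and counter: not given in the sources used here. All columns were matched to libraries by title, and 24375 of 24475 identifiers had a symbol.

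Rounded counts entered edgeR 4.0.16 (R 4.3.3), on the libraries of each comparison, with TMM, filterByExpr (minimum count 10, total 15) and the two-sided quasi-likelihood F test, adjusted over all genes tested. The standard error is |log2 fold change| divided by √F. A stretch ends at a gap of over 5 in library number. Alternatives used DESeq2 1.42.0, its size factors, no filter, the stretch as covariate, the longest stretch alone, outlying libraries left out (over 5 median absolute deviations below the median correlation) and limma 3.58.1 on TPM (at least 1 TPM in 20 libraries, pseudocounts 1 and 0.1). Fits outside the longest stretch, and without the libraries holding another tissue's transcripts (marker sum over 8 times the group median and 5 TPM, or over 20 Umod reads outside kidney), were added after the data were seen. The test was checked on simulated counts.

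Nothing in the labels ties each library to its own animal, and the p-values therefore reflect only how these libraries scatter, which may be technical. Every within-group pair differed by more than sampling noise (smallest chi-square per gene 3.48). Members and lists were chosen with earlier results of these data known. Named were all members, up to 4 called genes of the smallest p from each of the WNK, thick limb, distal tubule, collecting duct and calcium lists in kidney, and the 3 genes most alike to each member (mean of at least 1 CPM). A gene that this rule names is not reported here. The Klhl3 and uncalled WNK pathway genes, those named in heart, the Fat4 thick limb genes, and the hormone and clock genes were named after their values were seen. The collecting duct markers given in TPM were also named after their values were seen. The clock list was added last.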

Additional observations from a re-analysis of the deposited data

Results flagged for a closer look

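Differences between Het and WT that themselves differed between lines or tissues, by edgeR's interaction test with BH adjustment over all genes, are listed here on the log2 scale with their standard errors. Their causes were not tested.

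In kidney, the Dchs1 difference exceeded the Fat4 difference for the sodium channel genes by 0.59 ± 0.075 (Scnn1a), 0.44 ± 0.077 (Scnn1b) and 0.33 ± 0.095 (Scnn1g). For the calcium genes the gap was 0.79 ± 0.176 (Calb1) and 0.73 ± 0.256 (Trpv5). For the thick limb genes it was 0.52 ± 0.118 (Umod) and 0.51 ± 0.139 (Slc12a1), and these were the members whose called direction was downward in the Fat4 line. For Slc12a3 it was 0.32 ± 0.127, for Wnk4 0.22 ± 0.054 and for Wnk1 0.18 ± 0.057.

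In heart, the Dchs1 and Fat4 differences were apart by 0.65 ± 0.093 for Wnk4, 0.62 ± 0.205 for Slc12a3 and -0.28 ± 0.067 for Wnk1. In liver they were apart by -0.70 ± 0.111 for Scnn1a, and in lung by 0.19 ± 0.054 for Scnn1g. Within the Dchs1 line, the heart difference minus the kidney difference was 0.62 ± 0.073 for Wnk4, 0.71 ± 0.189 for Slc12a3, -0.44 ± 0.071 for Wnk1 and -0.57 ± 0.177 for Scnn1a. The heart difference minus the lung difference was 0.69 ± 0.094 for Wnk4 and -0.37 ± 0.109 for Wnk1. The Wnk4 values that include Dchs1 heart are a description, since its rise there put it into the set. The kidney values are a description as well, since they were known when the set was drawn up.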

How the results depend on the processing

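No member that was called under any setting had the opposite direction in the main test. DESeq2 and its size factors gave the same number of called members in all 14 comparisons. Counts moved by more than 1.5 times as follows. Outside the longest stretch, with 12 libraries, 2 members in Dchs1 kidney, 0 in Dchs1 liver, 0 in Dchs1 lung and 0 in Fat4 kidney were called, against 7, 1, 3 and 2, and these fits use fewer samples. On log2(TPM + 1) and log2(TPM + 0.1), limma called 0 and 0 in Dchs1 lung and 1 and 0 in Fat4 kidney. In the lung test between lines 2 members were called without outlying libraries and 2 without the libraries holding another tissue's transcripts, against 1, Scnn1a being added. Over all genes, Dchs1 lung gave 3018 calls and 4711 with the stretch as covariate, Fat4 heart 211 and 37 without outlying libraries, and Fat4 lung 21 and 61 by DESeq2. No fit without outlying libraries was possible in Dchs1 heart and Fat4 kidney, which held 0 of them, none by stretch in Fat4 lung, which has 1 stretch, and none outside it in Fat4 heart and liver, with 3 libraries there. No paired analysis was possible because library numbers are not shared between groups. Depth limits Trpv5 in kidney and Slc12a3 and Scnn1a in heart, each at medians under 30 reads per library.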

Other observations

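Slc12a3 was read at trace level in lung, where it did not pass the count filter and was not tested. Its median in the Dchs1 line was 0.11 TPM (0 to 0.33) in WT and 0.22 TPM (0.03 to 0.53) in Het, or 3 and 7 reads per library, and the ranges overlapped. In the Fat4 lung the medians were 0.15 and 0.13 TPM.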
